A study of Homo sapiens with 6 samples.

Results

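The glycosyltransferase and sulfotransferase genes examined here encode the Golgi enzymes that add sialic acid, fucose, galactose, N-acetylglucosamine (GlcNAc), N-acetylgalactosamine (GalNAc) or sulfate to the sugar chains of proteins and lipids. They were chosen by gene name, as every row whose symbol belonged to the ST3GAL, ST6GAL, ST8SIA, FUT, GALNT, B3GNT, B3GALT, B4GALT, MGAT, CHST, HS2ST, HS3ST, HS6ST, NDST or GCNT series. The choice used no measured value. It gave 73 genes of 18336 distinct names, of which 67 were enzyme genes and 6 were 5 antisense RNAs and 1 pseudogene that carry an enzyme's symbol. RNA was sequenced from HUVECs, human umbilical vein endothelial cells, which are primary cells that line the umbilical cord's vein. In one group of 3 libraries the cells had received 8OH-G miR-483 by transfection, a version of the microRNA miR-483 whose name points to the oxidised base 8-hydroxyguanine. In the other 3 libraries they had received miR-483. RNA of both groups was taken after 48 h, labelled Day 2. All cells had been grown in M199 medium with fetal bovine serum, a recombinant growth factor, heparin, antibiotics and pyruvate, and both groups received a lipid transfection reagent. The scramble control named in the protocol was not analysed here, so each difference is one between the 2 microRNA forms, with no level from cells without either.

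Sugar chains are built by enzymes acting in sequence. N-glycans on asparagine are trimmed, branched by MGAT enzymes, lengthened with galactose and closed with sialic acid, while O-glycans on serine and threonine are started by GALNT enzymes, branched by GCNT enzymes and capped in the same way. Glycosphingolipids, including gangliosides, are lengthened by other members of the same families. Heparan and chondroitin sulfate are long chains that are sulfated at set positions by NDST, HS2ST, HS3ST, HS6ST and CHST enzymes. In endothelium these chains form much of the glycocalyx, carry ligands of selectins and galectins, and hold growth factors, chemokines and antithrombin at the vessel wall.

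The deposited values were taken as FPKM, sequenced fragments per length of gene and size of library, from their magnitude, and their totals ran from 1598260 to 1687283 in 8OH-G miR-483 libraries and from 1396537 to 1440422 in miR-483 libraries. Mitochondrial genes made up 76.5% to 78.4% of the total in 8OH-G miR-483 libraries and 73.4% to 76.2% in miR-483 libraries. The number of reads per library is unknown, and counting intervals are therefore left out. The miR-483 library of replicate 1 had 2663 rows at 0, against 287 to 625 rows in the other 5 libraries. Of the 73 genes examined only GALNT16 was at 0 in any library. Of 10 endothelial markers, all had a tested row and none was at 0. Their summed level was 1098 to 1317 FPKM with 8OH-G miR-483 and 1933 to 1969.9 FPKM with miR-483, with PECAM1, CDH5, VWF, TEK, TIE1 and EMCN lower and KDR, ERG, CLDN5 and ESAM not called. The leukocyte markers with a row, CD68 and LYZ, summed to 6.49 to 7.79 FPKM with 8OH-G miR-483 and 14.2 to 17.7 FPKM with miR-483, with CD68 lower, and LYZ, at or near 0 with 8OH-G miR-483, entering the test through miR-483 libraries alone. The 8 others were not analysed here. Mural and fibroblast markers summed to 826 to 1019 FPKM with 8OH-G miR-483 and 619.8 to 842 FPKM with miR-483. RGS5 made up most of that and was not called, COL3A1 was lower, and MYH11, DCN, LUM and PDGFRA averaged under 0.5 FPKM in both groups. Epithelial markers, of which KRT8, KRT18 and KRT19 had a row, summed to 127 to 144 FPKM with 8OH-G miR-483 and 71.0 to 81.6 FPKM with miR-483, with KRT18 higher. Lymphatic markers summed to 23.7 to 31.4 FPKM with 8OH-G miR-483 and 36.1 to 38.0 FPKM with miR-483, with PROX1 and LYVE1 lower and FLT4 not called. Erythroid markers were not analysed here. The part of these markers in the transferase results was not tested. In bulk RNA, fewer cells of a type and less RNA per cell cannot be told apart.

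Cells given 8OH-G miR-483 had lower levels of most sialyltransferase genes and of HS3ST1, B3GALT4 and 5 genes that build N-glycans, MGAT1, MGAT4A, MGAT4B, B4GALT1 and B4GALT3, while the N-glycan branching gene MGAT5 was higher. They had higher levels of 4 of 7 tested GALNT genes, which start O-glycans, and of both GCNT genes. NDST1, HS2ST1 and 4 of 9 tested CHST genes were also higher. Over all genes tested, 34.9% were called higher and 20.5% lower. GALNT1, GALNT7, CHST3 and CHST7 each lost their call without some single libraries. After median-ratio scaling 2 GALNT and 3 CHST genes were higher. After quantile normalization 3 GALNT and 2 CHST genes were higher and 1 CHST gene was lower. In limma on log2(FPKM + 1), with group as the only term, 63 of the 73 genes passed the filter of at least 1 FPKM in at least 3 libraries. At a Benjamini-Hochberg adjusted p under 0.05, 46 of these 63 were called, or 73.0%, beside 55.3% of all 12729 genes tested. The 22 called higher stood beside 34.9% of all genes tested called higher, a similar share. The 24 called lower stood beside 20.5% of all genes tested called lower. ST6GALNAC1, HS3ST1, B3GALT4, B3GNT9 and ST3GAL4-AS1 reached 1 FPKM only in the 3 miR-483 libraries, so they entered the test through that group alone. The median log2 fold change, 8OH-G miR-483 minus miR-483, was -0.005 over the 63 genes and 0.09 over all genes tested. The lowest 8OH-G miR-483 library lay above the highest miR-483 library for 21 of the 63 genes, and the groups were apart in the other direction for 25, beside 39.5% and 23.8% of all genes tested. Of the 63 genes, 11 were called higher and 13 lower with a ratio of mean FPKM of at least 1.5, beside 18% and 10.2% of all genes tested. Median-ratio scaling moved the median of all genes by -0.09 and quantile normalization by -0.10. The split of the 63 genes was then 15 higher and 26 lower, or 15 higher and 27 lower. Among all called genes the higher ones were 63% as deposited, and 51.6% and 49.1% under these scalings. Relative to the median of all genes, the median of the 63 was -0.10 as deposited, -0.09 with median-ratio scaling and -0.07 with quantile normalization. The cells' cultures are not described per library, so all p-values reflect only how these libraries spread, which may be technical.

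**Figure D1:**
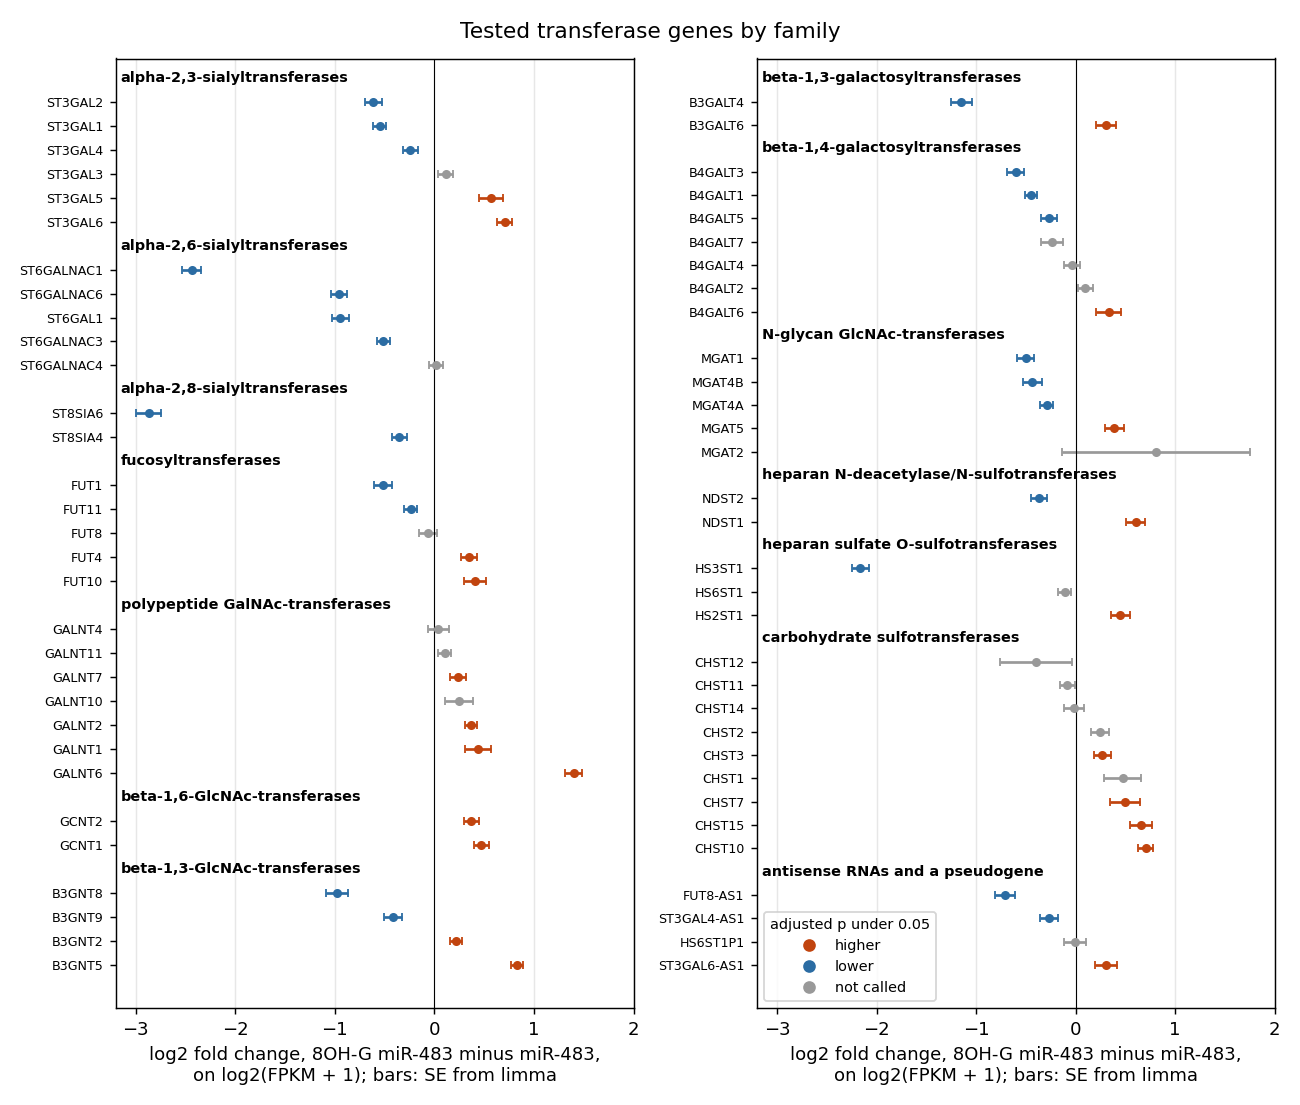
Log2 fold changes (8OH-G miR-483 minus miR-483, x axis, on the log2(FPKM + 1) scale) of the 63 tested genes, grouped by family down the page, with bars for the standard error from limma (n = 3 libraries per group). Red points passed an adjusted p of 0.05 as higher, blue points as lower, and grey points were not called. ST8SIA6 at -2.87, ST6GALNAC1 at -2.44 and HS3ST1 at -2.16 lie farthest left, GALNT6 at 1.40 lies farthest right, and MGAT2 has the widest bar.

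Promoter sequences are shown for the genes with the largest fall and the largest rise among called genes that had an entry in the RefSeq table of promoters used here, HS3ST1 and B3GNT5. Each sequence runs 5′ to 3′ on the strand of its gene, from 250 bases before the start to 50 after it, on build GRCh38.p14, which differs from the hg19 build named for the deposited files. Capitals mark CACCC or its reverse complement GGGTG, and GGGCGG or its reverse complement CCGCCC. Zinc finger factors of the KLF and SP families are known to bind these 2 short motifs.
HS3ST1, chr4:11428845-11429144, minus strand: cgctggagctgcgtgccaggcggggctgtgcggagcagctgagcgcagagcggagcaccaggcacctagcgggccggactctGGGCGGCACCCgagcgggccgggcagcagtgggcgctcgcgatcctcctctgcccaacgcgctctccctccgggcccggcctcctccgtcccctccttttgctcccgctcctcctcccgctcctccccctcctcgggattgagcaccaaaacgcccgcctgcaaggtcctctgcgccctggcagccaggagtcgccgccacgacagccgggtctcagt
B3GNT5, chr3:183253003-183253302, plus strand: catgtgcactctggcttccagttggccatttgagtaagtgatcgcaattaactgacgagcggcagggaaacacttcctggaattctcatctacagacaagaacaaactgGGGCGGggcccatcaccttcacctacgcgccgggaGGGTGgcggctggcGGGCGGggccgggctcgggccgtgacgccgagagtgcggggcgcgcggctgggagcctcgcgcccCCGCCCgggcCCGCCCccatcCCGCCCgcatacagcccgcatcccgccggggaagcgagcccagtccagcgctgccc
The HS3ST1 window held 1 CACCC and 1 GGGCGG, which stood side by side without overlap, and its GC content was 73.0%. The B3GNT5 window held 1 CACCC motif, 5 GGGCGG motifs and a GC content of 69.0%. Entries were found for 56 of the 73 genes, with 94 promoters in all. On either strand, CACCC occurred in 68.1% of these 94 and in 59.9% of all 35116 promoters of the table, and GGGCGG in 67.0% and 45.0%. A match of letters is a description of the window and does not show that a factor binds there.

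Sialyltransferases close a chain with sialic acid, a charged sugar that galectins, selectins and siglecs read. Of 14 genes, 13 were tested, 9 were lower with 8OH-G miR-483, ST3GAL5 and ST3GAL6 were higher, and ST3GAL3 and ST6GALNAC4 were not called. Over all genes tested, 20.5% were called lower and 34.9% higher. ST6GALNAC1, among the 9, entered the test through the miR-483 libraries alone. The summed level of the 14 genes was 174 ± 11.2 FPKM with 8OH-G miR-483 and 276 ± 11.4 FPKM with miR-483 (mean ± SD, n = 3 libraries per group throughout). The 2 ranges did not overlap, with sums of 162 to 184 FPKM in 8OH-G miR-483 libraries and 263 to 284 FPKM in miR-483 libraries. The median log2 fold change of the 13 was -0.51. The counts were the same under both scalings.

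ST6GAL1, the main enzyme that puts sialic acid in alpha-2,6 linkage on the galactose of N-glycans, had the highest level of the group. It had 56.1, 53.2 and 47.9 FPKM in the 8OH-G miR-483 libraries, against 106, 93.4 and 105 FPKM in the miR-483 libraries. All 8OH-G miR-483 libraries lay below all miR-483 libraries, and the mean was 1.94-fold lower (log2 fold change -0.94, SE 0.084, limma adjusted p = 3.14e-05). ST6GAL1 alone made up 29.6% to 30.6% of the summed sialyltransferase level with 8OH-G miR-483 and 35.5% to 37.7% with miR-483. ST6GALNAC6, which acts on gangliosides and on the disialyl Lewis a structure, had 20.7, 20.3 and 19.8 FPKM with 8OH-G miR-483 and 41.0, 36.6 and 43.8 FPKM with miR-483. The groups were again apart and the log2 fold change was -0.96 (SE 0.077, limma adjusted p = 1.87e-05). ST6GALNAC1, which caps the first O-linked GalNAc to make the sialyl-Tn antigen, had 0.410, 0.595 and 0.367 FPKM with 8OH-G miR-483 and 6.18, 7.24 and 7.24 FPKM with miR-483. Its mean was 15.1-fold lower, the largest ratio of means among the 63 genes, with a log2 fold change of -2.44 (SE 0.096, limma adjusted p = 9.22e-07). The fold on the log2(FPKM + 1) scale understates the ratio of such low values. ST6GALNAC1 stayed under 1 FPKM with 8OH-G miR-483 and entered the test through the miR-483 libraries alone. Nothing is therefore read from its rank or its p-value. ST6GALNAC3, which acts on O-glycans and gangliosides, averaged 5.16 ± 0.230 FPKM with 8OH-G miR-483 and 7.78 ± 0.250 FPKM with miR-483 and was lower. ST6GALNAC4, which makes the disialyl-T structure on O-glycans, had 32.5 ± 2.58 FPKM with 8OH-G miR-483 and 32.1 ± 0.964 FPKM with miR-483, and its groups overlapped (limma adjusted p = 0.865).

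The alpha-2,8 sialyltransferases add a further sialic acid to one already present. ST8SIA6, which acts on O-glycans, had 2.18, 1.58 and 1.56 FPKM with 8OH-G miR-483 and 22.6, 17.2 and 18.2 FPKM with miR-483. The highest 8OH-G miR-483 library was far below the lowest miR-483 library (log2 fold change -2.87, SE 0.123, limma adjusted p = 1.18e-06). ST8SIA4, one of the enzymes that polymerise polysialic acid, was lower at 2.96 ± 0.153 FPKM with 8OH-G miR-483 and 4.06 ± 0.250 FPKM with miR-483. The ganglioside GD3 synthase ST8SIA1 had a highest value of 0.245 FPKM and was not tested. The antisense RNA ST8SIA6-AS1 was also too low to be tested, at 0.0605, 0.0599 and 0.0203 FPKM with 8OH-G miR-483 and 0.515, 0.759 and 0.563 FPKM with miR-483. The group that was low for ST8SIA6 was the low one here too. The sources used here do not say whether reads were counted by strand, and reads of a gene and its antisense partner cannot be told apart.

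The alpha-2,3 sialyltransferases went both ways. ST3GAL1 and ST3GAL2, which cap the galactose of core 1 O-glycans, were lower. ST3GAL1 had 14.4, 13.7 and 13.1 FPKM with 8OH-G miR-483 and 20.9, 20.005 and 20.7 FPKM with miR-483. ST3GAL2 had 11.6, 10.4 and 9.22 FPKM with 8OH-G miR-483 and 15.9, 16.7 and 16.6 FPKM with miR-483. The groups of both genes were apart, with log2 fold changes of -0.55 (SE 0.065) and -0.61 (SE 0.086) and limma adjusted p-values of 0.000145 and 0.000404. ST3GAL6, which caps N-acetyllactosamine and takes part in making sialyl Lewis x, had 12.9, 13.3 and 13.4 FPKM with 8OH-G miR-483 and 7.52, 8.46 and 7.12 FPKM with miR-483. It was higher in every 8OH-G miR-483 library than in any miR-483 library (log2 fold change 0.71, SE 0.075, limma adjusted p = 8.30e-05). ST3GAL5, the GM3 synthase that opens ganglioside synthesis, was higher at 9.09 ± 1.23 FPKM with 8OH-G miR-483 and 5.80 ± 0.940 FPKM with miR-483. ST3GAL4, which shares acceptors with ST3GAL6, was lower at 6.80 ± 0.572 FPKM with 8OH-G miR-483 and 8.21 ± 0.211 FPKM with miR-483 (limma adjusted p = 0.0240). The ST3GAL4 call was lost without miR-483 replicate 1, without miR-483 replicate 3 and without 8OH-G miR-483 replicate 3 (limma adjusted p of 0.0516 to 0.0853). ST3GAL3, another enzyme of this kind, had 5.65 ± 0.345 FPKM with 8OH-G miR-483 and 5.13 ± 0.294 FPKM with miR-483 and was not called.

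**Figure D2:**
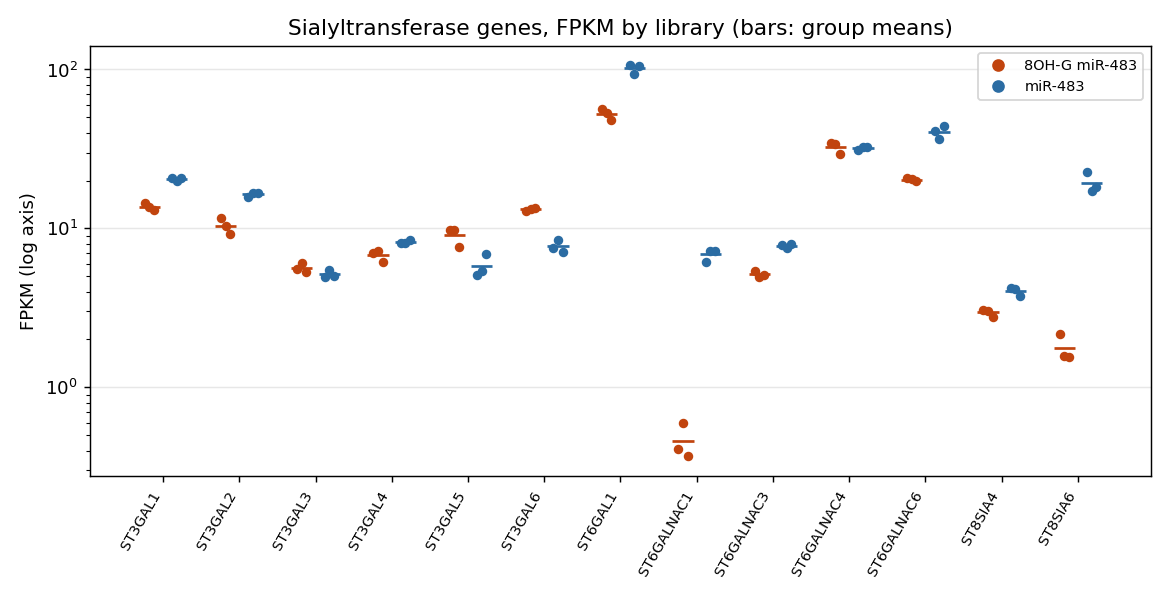
FPKM (y axis, log scale) of the 13 tested sialyltransferase genes (x axis), with 1 point per library and a bar at the mean, red for 8OH-G miR-483 and blue for miR-483 (3 libraries each). ST6GAL1 has the highest points, ST6GALNAC1 and ST8SIA6 show the widest gaps between groups, and ST3GAL5 and ST3GAL6 have their red points above the blue ones.

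Fucosyltransferases add fucose to the core or to the outer parts of a chain. Of 6 genes 5 were tested, with FUT4 and FUT10 higher, FUT1 and FUT11 lower and FUT8 not called. FUT8, the only enzyme of core fucosylation of N-glycans, had the highest level, at 30.6, 29.9 and 31.5 FPKM with 8OH-G miR-483 and 29.5, 30.5 and 37.0 FPKM with miR-483. Its groups overlapped (log2 fold change -0.07, SE 0.089, limma adjusted p = 0.543). FUT11, placed in the alpha-1,3 group by sequence, was lower at 22.5 ± 0.955 FPKM with 8OH-G miR-483 and 26.7 ± 1.37 FPKM with miR-483 (log2 fold change -0.24, SE 0.068, limma adjusted p = 0.0163). The FUT11 call was lost without miR-483 replicate 1 and without miR-483 replicate 3 (limma adjusted p of 0.0535 and 0.0675). FUT1, which makes the H antigen, was lower at 1.73 ± 0.244 FPKM with 8OH-G miR-483 and 2.89 ± 0.0962 FPKM with miR-483. FUT4, which makes Lewis x, had 1.69 ± 0.152 FPKM with 8OH-G miR-483 and 1.11 ± 0.103 FPKM with miR-483 and was higher, as was FUT10 at 2.46 ± 0.390 FPKM with 8OH-G miR-483 and 1.60 ± 0.225 FPKM with miR-483. The called fucosyltransferases other than FUT11 were thus genes of low level. FUT2, the other H antigen enzyme, had a highest value of 0.359 FPKM and was not tested.

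The GALNT enzymes place the first GalNAc of mucin-type O-glycans on serine or threonine. Of 10 genes 7 were tested, 4 were higher with 8OH-G miR-483, 0 were lower, and GALNT4, GALNT10 and GALNT11 were not called. Their summed level was 345 ± 17.2 FPKM with 8OH-G miR-483 and 255 ± 27.1 FPKM with miR-483, and the 2 ranges did not overlap. GALNT6 had 23.1, 22.5 and 24.7 FPKM with 8OH-G miR-483 and 8.46, 7.31 and 9.07 FPKM with miR-483. It was 2.83-fold higher in mean FPKM, with all 3 libraries above those of miR-483 (log2 fold change 1.40, SE 0.086, limma adjusted p = 4.88e-06). It was the only gene of the 63 called higher with a log2 fold change of at least 1, as were 5.33% of all genes tested.

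GALNT1, a broadly expressed member with the highest level of all 73 genes, had 232, 219.8 and 192 FPKM with 8OH-G miR-483 and 182, 167 and 129 FPKM with miR-483. The lowest 8OH-G miR-483 library was above the highest miR-483 library by a small margin (log2 fold change 0.44, SE 0.132, limma adjusted p = 0.0209). The GALNT1 call was lost without miR-483 replicate 3, without 8OH-G miR-483 replicate 1 and without 8OH-G miR-483 replicate 2 (limma adjusted p of 0.0521 to 0.0769), and after median-ratio scaling (0.0543). GALNT2, the other broadly expressed member, had 41.6, 40.6 and 43.3 FPKM with 8OH-G miR-483 and 31.9, 32.5 and 32.4 FPKM with miR-483. Its groups were apart (log2 fold change 0.37, SE 0.059, limma adjusted p = 0.000939). GALNT7, which prefers peptides that already carry a GalNAc, was higher at 27.9 ± 1.68 FPKM with 8OH-G miR-483 and 23.5 ± 1.82 FPKM with miR-483 (limma adjusted p = 0.0298). The GALNT7 call was lost without miR-483 replicate 2, without miR-483 replicate 3 and without 8OH-G miR-483 replicate 3 (limma adjusted p of 0.0844 to 0.0970), and after both scalings (0.158 and 0.165). GALNT2 and GALNT6 were called higher under both scalings. GALNT10 had 23.8, 16.6 and 23.5 FPKM with 8OH-G miR-483 and 18.4, 15.7 and 18.6 FPKM with miR-483. In GALNT10, 8OH-G miR-483 replicate 2 lay within the miR-483 range (limma adjusted p = 0.156), and without it the adjusted p was 0.00609. GALNT11 had 12.1 ± 0.250 FPKM with 8OH-G miR-483 and 11.2 ± 0.611 FPKM with miR-483, and GALNT4 2.66 ± 0.445 FPKM with 8OH-G miR-483 and 2.55 ± 0.249 FPKM with miR-483. GALNT12 was too low to be tested, at 0.623, 0.697 and 0.862 FPKM with 8OH-G miR-483 and 0.0580, 0.143 and 0.107 FPKM with miR-483. GALNT3 and GALNT16 had a highest value of 0.204 FPKM.

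**Figure D3:**
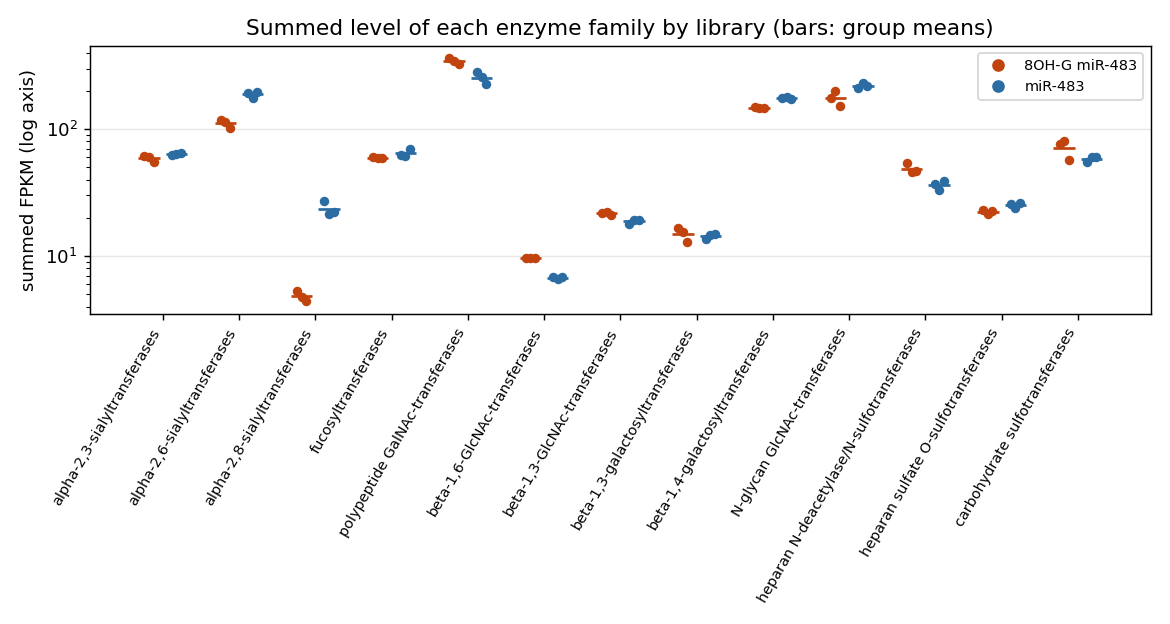
Summed FPKM of each enzyme family (y axis, log scale) by family (x axis), with 1 point per library and a bar at the mean, red for 8OH-G miR-483 and blue for miR-483 (3 libraries each). The red points lie below the blue ones for the alpha-2,6 and alpha-2,8 sialyltransferases and above them for the polypeptide GalNAc-transferases. The family with the highest sum, 345 FPKM with 8OH-G miR-483 and 255 FPKM with miR-483, is that of the polypeptide GalNAc-transferases.

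The GCNT and B3GNT enzymes branch and lengthen chains with GlcNAc. Both GCNT genes were higher, also after both scalings. GCNT1, the core 2 enzyme on which O-linked selectin ligands are built, had 4.98, 5.01 and 4.58 FPKM with 8OH-G miR-483 and 3.01, 3.21 and 3.47 FPKM with miR-483 (log2 fold change 0.47, SE 0.077, limma adjusted p = 0.000958). GCNT2, which makes I-branches of poly-N-acetyllactosamine, had 4.72, 4.68 and 5.07 FPKM with 8OH-G miR-483 and 3.79, 3.38 and 3.36 FPKM with miR-483 (log2 fold change 0.37, SE 0.076, limma adjusted p = 0.00323). For both genes every 8OH-G miR-483 library was above every miR-483 library.

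Of the 4 B3GNT genes 2 were higher and 2 lower. B3GNT5, which makes lactotriaosylceramide and so opens the lacto-series glycolipids, had 11.5, 11.5 and 11.4 FPKM with 8OH-G miR-483 and 6.11, 5.78 and 6.17 FPKM with miR-483. The 3 libraries of each group lay close together and the mean was 1.91-fold higher (log2 fold change 0.83, SE 0.063, limma adjusted p = 1.34e-05). B3GNT2, the main enzyme of poly-N-acetyllactosamine, had 7.52 ± 0.249 FPKM with 8OH-G miR-483 and 6.32 ± 0.0720 FPKM with miR-483 and was higher (log2 fold change 0.22, limma adjusted p = 0.0185). The B3GNT2 call was lost without miR-483 replicate 1 or 3 and without 8OH-G miR-483 replicate 1 or 2 (limma adjusted p of 0.0531 to 0.0579), and after both scalings (0.110 and 0.504). B3GNT8, which lengthens branched N-glycans, had 2.00, 2.47 and 1.99 FPKM with 8OH-G miR-483 and 4.41, 5.996 and 5.26 FPKM with miR-483. Its groups were apart, with a log2 fold change of -0.98 (SE 0.111, limma adjusted p = 0.000123). B3GNT9 was lower at 0.655 ± 0.109 FPKM with 8OH-G miR-483 and 1.21 ± 0.107 FPKM with miR-483. It entered the test through the miR-483 libraries alone.

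The MGAT enzymes start and branch complex N-glycans. Of 6 genes 5 were tested, with MGAT1, MGAT4A and MGAT4B lower and MGAT5 higher, also after both scalings. MGAT1, which adds the GlcNAc that commits a chain to the hybrid and complex forms, had 43.2, 47.7 and 41.1 FPKM with 8OH-G miR-483 and 58.7, 68.3 and 61.1 FPKM with miR-483. Its groups were apart (log2 fold change -0.50, SE 0.084, limma adjusted p = 0.00107). MGAT4B, one of a pair of enzymes of the beta-1,4 branch, had the highest level of the family, at 105, 105 and 84.0 FPKM with 8OH-G miR-483 and 128, 138 and 130.1 FPKM with miR-483 (log2 fold change -0.43, SE 0.098, limma adjusted p = 0.00528). MGAT4A, the other enzyme of that branch, had 9.04, 9.31 and 9.22 FPKM with 8OH-G miR-483 and 12.0, 10.9 and 11.5 FPKM with miR-483 (log2 fold change -0.29, SE 0.065, limma adjusted p = 0.00547). For all 3 of these genes every 8OH-G miR-483 library was below every miR-483 library. MGAT5, which adds the beta-1,6 branch that galectins bind once it is lengthened, had 15.7, 12.8 and 14.7 FPKM with 8OH-G miR-483 and 11.6, 9.74 and 11.0 FPKM with miR-483 and was higher (log2 fold change 0.39, SE 0.093, limma adjusted p = 0.00708).

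MGAT2, which opens the second arm of complex N-glycans, had 2.66, 25.3 and 2.10 FPKM with 8OH-G miR-483 and 2.33, 2.79 and 3.44 FPKM with miR-483. In MGAT2, 8OH-G miR-483 replicate 2 stood apart from the other 5, which overlapped. The log2 fold change was 0.81 (SE 0.944, limma adjusted p = 0.512), and -0.18 without that library (limma adjusted p = 0.297), so its direction rested on 1 library. MGAT5B, a relative of MGAT5, had a highest value of 0.834 FPKM and was not tested.

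Galactosyltransferases lengthen chains ahead of sialylation. Of the 7 B4GALT genes, B4GALT1, B4GALT3 and B4GALT5 were lower, B4GALT6 was higher, and B4GALT2, B4GALT4 and B4GALT7 were not called. Their summed level was 147 ± 0.738 FPKM with 8OH-G miR-483 and 176 ± 3.66 FPKM with miR-483, and the 2 ranges did not overlap. B4GALT1, the main galactosyltransferase of N-glycans, had 18.3, 18.2 and 17.8 FPKM with 8OH-G miR-483 and 25.4, 24.2 and 25.5 FPKM with miR-483. Its groups were apart (log2 fold change -0.45, SE 0.060, limma adjusted p = 0.000328). B4GALT3, which also acts on N-glycans, had 24.2, 27.0 and 27.5 FPKM with 8OH-G miR-483 and 38.2, 45.2 and 38.1 FPKM with miR-483 (log2 fold change -0.60, SE 0.088, limma adjusted p = 0.000493). B4GALT5 and B4GALT6 both make lactosylceramide, the base of gangliosides. B4GALT5 was lower at 39.1 ± 2.89 FPKM with 8OH-G miR-483 and 47.3 ± 2.84 FPKM with miR-483 (limma adjusted p = 0.0173). The B4GALT5 call was lost without miR-483 replicate 1, without miR-483 replicate 3 and without 8OH-G miR-483 replicate 2 (limma adjusted p of 0.0535 to 0.0590). B4GALT6 had 12.5, 10.3 and 12.8 FPKM with 8OH-G miR-483 and 10.8, 7.68 and 9.34 FPKM with miR-483, so its groups overlapped although it was called higher (limma adjusted p = 0.0489). The B4GALT6 call was lost without miR-483 replicate 2 or 3 and without 8OH-G miR-483 replicate 1 or 3 (limma adjusted p of 0.0952 to 0.143), with a pseudocount of 0.1, with no filter and after both scalings (0.0503 to 0.201).

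B4GALT2, a further N-glycan galactosyltransferase, had 29.9 ± 1.81 FPKM with 8OH-G miR-483 and 27.8 ± 1.36 FPKM with miR-483. B4GALT4, which acts on sulfated chains, had 2.00 ± 0.184 FPKM with 8OH-G miR-483 and 2.07 ± 0.0169 FPKM with miR-483. B4GALT7, which adds the first galactose of the linker that joins heparan and chondroitin chains to protein, had 19.97 ± 2.71 FPKM with 8OH-G miR-483 and 23.6 ± 2.27 FPKM with miR-483 (limma adjusted p = 0.102). B4GALT7 was called lower after both scalings. B3GALT6, which adds the second galactose of that linker, was higher at 14.1 ± 1.79 FPKM with 8OH-G miR-483 and 11.2 ± 0.645 FPKM with miR-483 (limma adjusted p = 0.0255). The B3GALT6 call was lost without miR-483 replicate 1 or 3 and without 8OH-G miR-483 replicate 1 or 2 (limma adjusted p of 0.0609 to 0.0920), and after both scalings (0.0860 and 0.127). B3GALT4, which makes the ganglioside GM1, had 0.947, 0.946 and 0.693 FPKM with 8OH-G miR-483 and 3.00, 2.78 and 3.64 FPKM with miR-483. Its mean was 3.64-fold lower and the groups were apart (log2 fold change -1.15, SE 0.105, limma adjusted p = 3.62e-05). B3GALT4 was the one name of the 73 that stood on several rows, 5 in all, and its highest value per library was used. With ST8SIA6, ST6GALNAC1 and HS3ST1 it was 1 of 4 genes called lower with a log2 fold change of -1 or less, beside 2.58% of all genes tested. Of the 4, ST8SIA6 alone did not owe its place in the test to the miR-483 libraries, so nothing is read from that count.

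Heparan sulfate is first cleared of acetyl groups and N-sulfated by NDST enzymes and then sulfated on oxygen. Of the 7 genes 5 were tested, with NDST1 and HS2ST1 higher, NDST2 and HS3ST1 lower and HS6ST1 not called. HS3ST1, which makes the 3-O-sulfated site that binds antithrombin and whose promoter is shown above, had 0.536, 0.387 and 0.438 FPKM with 8OH-G miR-483 and 5.40, 5.21 and 5.93 FPKM with miR-483. The groups were far apart, with a 12.1-fold lower mean (log2 fold change -2.16, SE 0.084, limma adjusted p = 9.22e-07). HS3ST1 stayed under 1 FPKM with 8OH-G miR-483 and entered the test through the miR-483 libraries alone, so nothing is read from its p-value. NDST1, the main N-sulfotransferase of most tissues, had 46.2, 39.6 and 39.4 FPKM with 8OH-G miR-483 and 28.1, 24.0 and 29.3 FPKM with miR-483 (log2 fold change 0.60, SE 0.095, limma adjusted p = 0.000788). NDST2, needed for mast cell heparin in mice, was lower at 7.04 ± 0.649 FPKM with 8OH-G miR-483 and 9.39 ± 0.400 FPKM with miR-483 (log2 fold change -0.37, limma adjusted p = 0.00413). HS2ST1, which sulfates the uronic acid, was higher at 11.3 ± 0.403 FPKM with 8OH-G miR-483 and 8.05 ± 1.04 FPKM with miR-483 (log2 fold change 0.45, limma adjusted p = 0.00327). The groups of each of these 4 genes did not overlap, and within the N-sulfation step NDST1 and NDST2 differed in sign. HS6ST1, which sulfates glucosamine at the sixth carbon, had 9.77 ± 0.504 FPKM with 8OH-G miR-483 and 10.6 ± 0.231 FPKM with miR-483 (limma adjusted p = 0.198). Its groups did not overlap either, and it was called lower after both scalings (limma adjusted p of 0.0131 and 0.0356). HS6ST2 and HS6ST3, with a highest value of 1.055 FPKM in HS6ST3, were not tested.

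The CHST genes encode sulfotransferases of chondroitin, dermatan and keratan sulfate and of selectin ligands. All 9 were tested, CHST3, CHST7, CHST10 and CHST15 were higher, 0 were lower and 5 were not called. After median-ratio scaling 3 were higher and 0 lower, and after quantile normalization 2 were higher and CHST11 was lower. CHST10, the enzyme of the HNK-1 epitope, had 5.08, 4.56 and 4.49 FPKM with 8OH-G miR-483 and 2.56, 2.46 and 2.49 FPKM with miR-483. CHST15, which adds a second sulfate to chondroitin 4-sulfate, had 2.52, 2.20 and 1.69 FPKM with 8OH-G miR-483 and 0.869, 1.06 and 1.01 FPKM with miR-483. Both had groups apart, with log2 fold changes of 0.70 (SE 0.075) and 0.66 (SE 0.111) and limma adjusted p-values of 8.58e-05 and 0.00113, and both kept their call under both scalings. CHST3 and CHST7 make chondroitin 6-sulfate. CHST3 was higher at 2.90 ± 0.231 FPKM with 8OH-G miR-483 and 2.24 ± 0.193 FPKM with miR-483 (limma adjusted p = 0.0260). The CHST3 call was lost without miR-483 replicate 2 or 3 and without 8OH-G miR-483 replicate 1 or 3 (limma adjusted p of 0.0537 to 0.0832), and after both scalings (0.0832 and 0.150). CHST7 had 7.81, 7.71 and 4.91 FPKM with 8OH-G miR-483 and 4.27, 4.21 and 4.91 FPKM with miR-483, so that 8OH-G miR-483 replicate 3 met the highest miR-483 library (limma adjusted p = 0.0217). The CHST7 call was lost without miR-483 replicate 1 or 2 and without 8OH-G miR-483 replicate 1 or 2 (limma adjusted p of 0.0624 to 0.0807), and after quantile normalization (0.0878).

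For 3 other CHST genes the call changed when 1 library was left out, and for CHST1 and CHST2 it also changed under another setting with all libraries kept, for CHST2 a filter of 3 FPKM (limma adjusted p = 0.0474). CHST1, the keratan sulfate galactose sulfotransferase with the highest level of the family, had 27.9, 31.6 and 17.5 FPKM with 8OH-G miR-483 and 17.5, 18.2 and 17.3 FPKM with miR-483. Its 8OH-G miR-483 replicate 3 lay within the miR-483 range (log2 fold change 0.47, SE 0.188, limma adjusted p = 0.0636), and without it the limma adjusted p was 0.000270. CHST2, which sulfates GlcNAc in L-selectin ligands, had 6.60, 6.64 and 5.34 FPKM with 8OH-G miR-483 and 4.94, 4.87 and 5.37 FPKM with miR-483 (limma adjusted p = 0.0503), and 0.00853 without the same library. CHST12, a chondroitin 4-sulfotransferase, had 3.36, 6.98 and 3.93 FPKM with 8OH-G miR-483 and 3.57, 8.12 and 8.43 FPKM with miR-483. Its miR-483 replicate 1 lay among the 8OH-G miR-483 libraries, and its 8OH-G miR-483 replicate 2 lay nearer the higher miR-483 libraries than its own group (limma adjusted p = 0.388). Without miR-483 replicate 1 the limma adjusted p was 0.0464. CHST11, the other chondroitin 4-sulfotransferase, had 7.70 ± 0.661 FPKM with 8OH-G miR-483 and 8.20 ± 0.0957 FPKM with miR-483. CHST14, the dermatan 4-sulfotransferase, had 10.4 ± 1.60 FPKM with 8OH-G miR-483 and 10.5 ± 0.235 FPKM with miR-483 (limma adjusted p = 0.907).

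**Figure D4:**
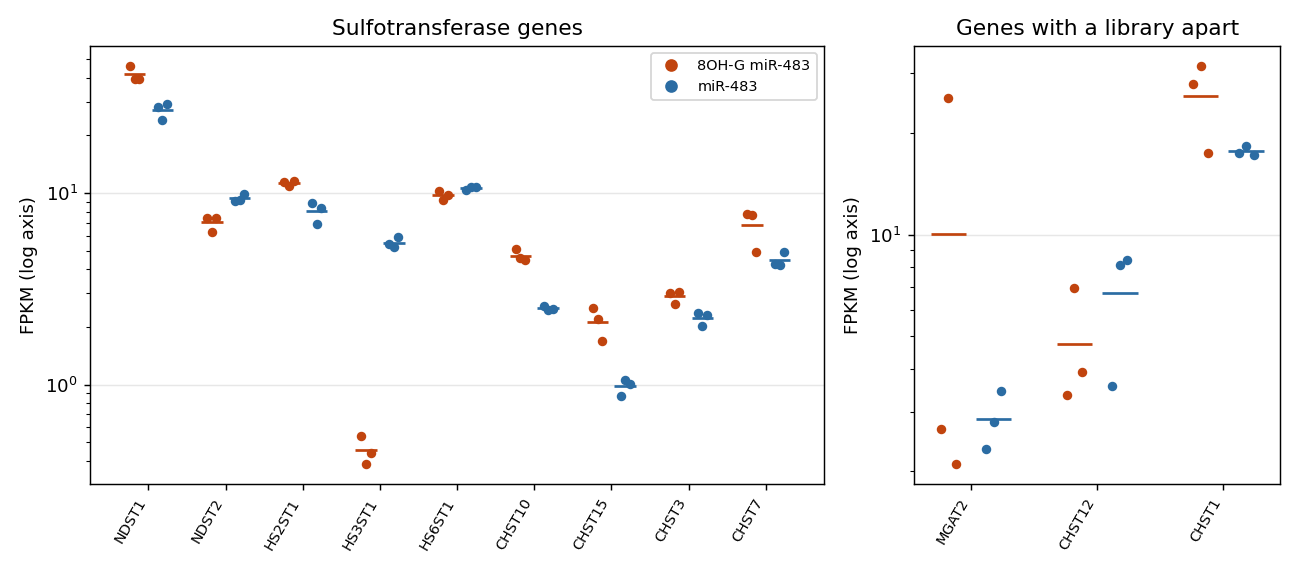
FPKM (y axis, log scale) of the tested heparan sulfotransferase genes and the called CHST genes (left) and of MGAT2, CHST12 and CHST1 (right). There is 1 point per library and a bar at the mean, red for 8OH-G miR-483 and blue for miR-483 (3 libraries each). HS3ST1 lies near 0.454 FPKM in red and 5.51 FPKM in blue, and the right panel shows the single libraries that stood apart from their group.

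Of the 5 antisense RNAs and the pseudogene, 4 were tested. FUT8-AS1 had 2.02, 2.21 and 2.47 FPKM with 8OH-G miR-483 and 3.98, 3.96 and 4.92 FPKM with miR-483. It was lower with groups apart (log2 fold change -0.71, SE 0.098, limma adjusted p = 0.000380), beside FUT8 itself, which was not called. ST3GAL6-AS1 was higher, as ST3GAL6 was, at 2.11 ± 0.356 FPKM with 8OH-G miR-483 and 1.51 ± 0.206 FPKM with miR-483 (limma adjusted p = 0.0399). The ST3GAL6-AS1 call was lost without miR-483 replicate 1 or 2 and without 8OH-G miR-483 replicate 1 or 3 (limma adjusted p of 0.0728 to 0.135), with no filter and after both scalings (0.0531 to 0.102). ST3GAL4-AS1 was lower, as ST3GAL4 was, at 0.783 ± 0.00930 FPKM with 8OH-G miR-483 and 1.15 ± 0.195 FPKM with miR-483 (limma adjusted p = 0.0331), a call lost without any one library other than miR-483 replicate 1 (0.0556 to 0.102). ST3GAL4-AS1 also entered the test through the miR-483 libraries alone, so nothing is read from its p-value. The pseudogene HS6ST1P1, which can share reads with HS6ST1, had 1.23 ± 0.174 FPKM with 8OH-G miR-483 and 1.25 ± 0.272 FPKM with miR-483. B4GALT1-AS1 had a highest value of 0.994 FPKM and was not tested.

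The steps that supply, precede or follow these enzymes were read from 9 lists with 136 entries, of which 123 had a row and 114 were tested. Of the 114 genes 38 were higher with 8OH-G miR-483 and 27 lower, beside 34.9% and 20.5% of all genes tested, shares near those of the lists. Their median log2 fold change was 0.12, beside 0.09 over all genes tested. ALG10 and SDC1 reached 1 FPKM only in the 3 8OH-G miR-483 libraries, so they entered the test through that group alone. The split was 30 higher and 34 lower with median-ratio scaling and 28 higher and 32 lower after quantile normalization. Among genes of sialic acid supply and release 4 of 8 tested were higher and 3 lower. NEU3, a sialidase of gangliosides, was higher at 2.65 ± 0.299 FPKM with 8OH-G miR-483 and 1.54 ± 0.177 FPKM with miR-483. SLC17A5, the lysosomal sialic acid exporter, was lower at 6.04 ± 0.491 FPKM with 8OH-G miR-483 and 13.5 ± 0.602 FPKM with miR-483 (log2 fold change -1.04, limma adjusted p = 1.14e-05). GNE, the entry enzyme of sialic acid synthesis, SLC35A1, the Golgi carrier of its activated form, and the 3 genes between them were named after their values were seen. GNE was lower at 3.94 ± 0.256 FPKM with 8OH-G miR-483 and 6.10 ± 0.687 FPKM with miR-483, and SLC35A1 was lower at 9.12 ± 0.682 FPKM with 8OH-G miR-483 and 11.9 ± 1.13 FPKM with miR-483. Between these steps, NANS and NANP, enzymes of sialic acid synthesis, were higher, NANS at 35.6 ± 1.92 FPKM with 8OH-G miR-483 and 30.9 ± 2.09 FPKM with miR-483, and NANP at 3.69 ± 0.336 FPKM with 8OH-G miR-483 and 2.61 ± 0.212 FPKM with miR-483. CMAS, which activates sialic acid, had 24.0 ± 2.01 FPKM with 8OH-G miR-483 and 21.9 ± 1.93 FPKM with miR-483 and was not called.

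Among genes of fucose supply, transfer and release 3 of 10 were higher, with POFUT1, which puts O-fucose on Notch, at 16.8 ± 0.823 FPKM with 8OH-G miR-483 and 11.3 ± 0.476 FPKM with miR-483. The 2 lower ones included SLC35C2, a transporter-like protein of the fucose pathway, at 9.30 ± 1.37 FPKM with 8OH-G miR-483 and 12.3 ± 0.631 FPKM with miR-483. After scaling this list had 2 higher and 3 or 4 lower. Genes of UDP-sugar supply had 7 of 16 higher and 3 lower as deposited, beside 34.9% and 20.5% of all genes tested. After either scaling this list had 3 higher and 5 lower. UAP1, the last enzyme of UDP-GlcNAc synthesis, was higher at 41.9 ± 5.15 FPKM with 8OH-G miR-483 and 20.7 ± 0.566 FPKM with miR-483 (log2 fold change 0.97, limma adjusted p = 3.66e-05). GFPT2, a first enzyme of the same route, was lower at 12.4 ± 0.435 FPKM with 8OH-G miR-483 and 19.0 ± 0.865 FPKM with miR-483. Of 9 genes of sulfate donor supply only the sulfate importer SLC26A2 was higher and only SLC35B3, a carrier of the activated sulfate, was lower. SLC26A2 had 6.06 ± 0.685 FPKM with 8OH-G miR-483 and 4.42 ± 0.337 FPKM with miR-483, and its call was lost after quantile normalization (limma adjusted p = 0.0598). SLC35B3 had 8.05 ± 0.268 FPKM with 8OH-G miR-483 and 9.19 ± 0.241 FPKM with miR-483 (limma adjusted p = 0.0482), a call lost when any one of the 6 libraries was left out (0.0613 to 0.134).

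Among O-glycan core and O-mannose genes 4 of 9 were higher and 4 lower, beside 34.9% and 20.5% of all genes tested. C1GALT1, the core 1 enzyme that acts next after the GALNT enzymes, was higher at 8.52 ± 0.943 FPKM with 8OH-G miR-483 and 5.28 ± 0.267 FPKM with miR-483. OGT, which puts single GlcNAc residues on nuclear and cytosolic proteins, was lower at 28.3 ± 1.51 FPKM with 8OH-G miR-483 and 51.1 ± 4.38 FPKM with miR-483. Of 25 genes of N-glycan transfer and trimming 7 were higher, 3 lower and 15 not called, no larger a share in either direction than over all genes tested. ALG10, a glucosyltransferase of the lipid-linked precursor, was higher at 1.90 ± 0.202 FPKM with 8OH-G miR-483 and 0.690 ± 0.0903 FPKM with miR-483. MAN1A1, a Golgi mannosidase that trims chains before MGAT1 acts, had 7.68, 7.22 and 6.32 FPKM with 8OH-G miR-483 and 25.1, 20.6 and 21.6 FPKM with miR-483. MAN1A1 was lower with groups far apart (log2 fold change -1.54, SE 0.096, limma adjusted p = 5.41e-06), as MGAT1 was by a smaller amount.

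Of 18 genes of heparan and chondroitin chain synthesis 6 were higher and 3 lower, shares near those over all genes tested. DSEL, a dermatan epimerase-like gene, was higher at 4.73 ± 1.10 FPKM with 8OH-G miR-483 and 1.65 ± 0.150 FPKM with miR-483. SULF1, an extracellular enzyme that removes sulfate from heparan chains, had 16.4, 14.5 and 20.4 FPKM with 8OH-G miR-483 and 126, 98.4 and 116 FPKM with miR-483. It was 6.63-fold lower in mean FPKM with groups far apart (log2 fold change -2.66, SE 0.130, limma adjusted p = 1.89e-06). Proteoglycan core proteins had 5 of 13 higher and 5 lower, beside 34.9% and 20.5% of all genes tested. The endothelial proteoglycan gene ESM1 was higher at 104 ± 11.4 FPKM with 8OH-G miR-483 and 28.7 ± 1.56 FPKM with miR-483, and versican, VCAN, was lower at 0.860 ± 0.265 FPKM with 8OH-G miR-483 and 3.16 ± 0.386 FPKM with miR-483. Of 6 selectins and mucin-type carriers 1 was higher and 3 were lower, beside the same 34.9% and 20.5%. CD44, a hyaluronan receptor and carrier of such chains, was higher at 105 ± 24.7 FPKM with 8OH-G miR-483 and 22.6 ± 0.204 FPKM with miR-483 (log2 fold change 2.14, SE 0.140, limma adjusted p = 6.73e-06). Endomucin, EMCN, a sialomucin of venous endothelium that was also an endothelial marker above, was lower at 32.5 ± 5.41 FPKM with 8OH-G miR-483 and 101 ± 8.87 FPKM with miR-483 (log2 fold change -1.62, SE 0.117, limma adjusted p = 1.06e-05).

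**Figure D5:**
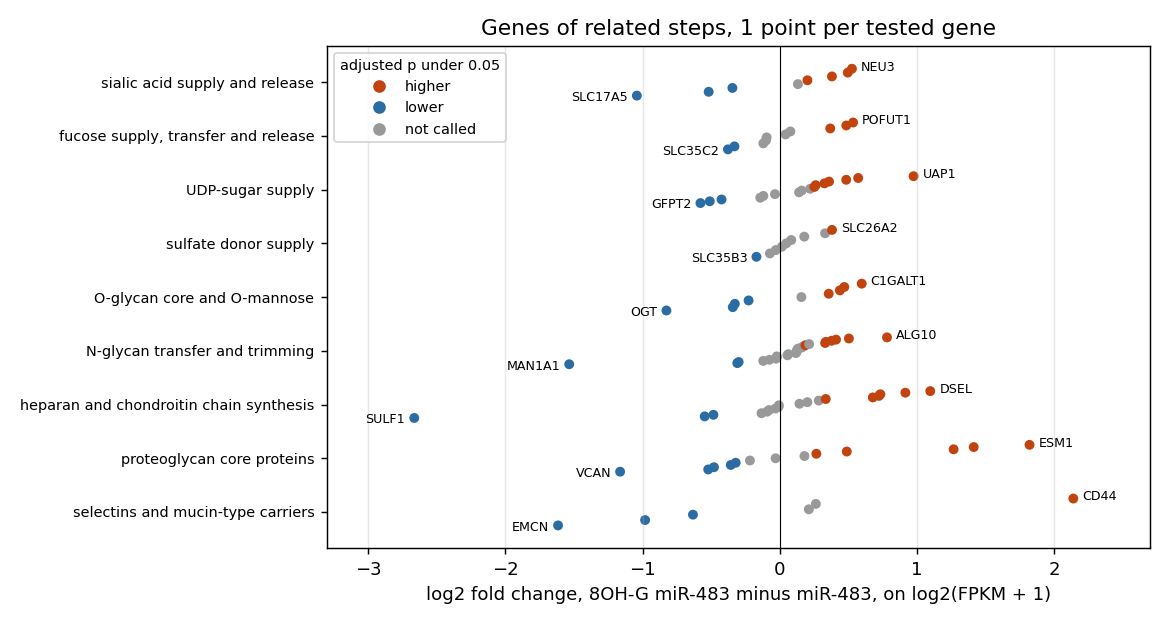
Log2 fold changes (8OH-G miR-483 minus miR-483, x axis, on the log2(FPKM + 1) scale) of the 114 tested genes of related steps, 1 point per gene, by list (y axis). Red points passed an adjusted p of 0.05 as higher, blue points as lower, and grey points were not called, with the called gene at each end named. SULF1 at -2.66 and CD44 at 2.14 lie farthest out.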

How the data were processed

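The data were RNA sequencing values of 6 libraries of HUVECs, 3 per group. Per the submitters' processing notes the tools were cutadapt, STAR, HTSeq and DESeq2 and the build was hg19, with no versions or order. The unit is not named in the sources used here. The deposited values were taken as FPKM because totals of 1396537 to 1687283 exceed what CPM or TPM can reach. Value times gene length (GENCODE 29) also summed to nearly the same amount in every library (1658198 to 1722454, with length in kilobases, over 13993 nuclear genes). These sums are above what FPKM can give with the lengths it was computed on, so the unit remains inferred. To look for whole reads, ratios of 1799 low genes between libraries were compared with ratios of whole numbers: at best 11.8% matched within 0.02 log2, against a median of 10.2% over 200 depth ratios, so whole reads were not recovered and no count test was run.

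Names on more than 1 row (748 of 18336 names on 20792 rows) were used at the highest value per library. In 5 libraries each such name had a single value on all its rows, but only 14 of the 748 did in miR-483 replicate 1. Values were transformed to log2(FPKM + 1), genes reaching 1 FPKM in 3 or more libraries were kept, and limma 3.58.1 (R 4.3.3, trend and robust) was fitted over all 12729 of them with p-values adjusted by Benjamini-Hochberg and 0.05 as the threshold. The procedure was also run on simulated data, and nothing about the calls given here is drawn from that run. N-fold values are ratios of mean FPKM. Named in full were called genes with a log2 fold change of at least 1 in size, the gene with the highest mean in each family, genes with a mean of at least 10 FPKM, and the called gene at each end of a related list. The remaining genes were named after their values were seen, to account for all 73. The genes, lists and tests were chosen with earlier results of these data known. Near-identical copies, overlapping genes and strand are uncertain. Seed matches of the microRNA were not analysed here. Figures were drawn with matplotlib 3.10.9 in Python 3.11.15.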

Additional observations from a re-analysis of the deposited data

How the results depend on the processing

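Alternatives covered the pseudocount, the filter, scaling, repeated names, a replicate block, a fold threshold and each library left out, 14 in all. Tested against a fold of 1.2, 7 of the 63 genes were higher and 15 lower, 20 related genes were higher and 11 lower, and 3441 of all genes were called in place of 7045. The median log2 fold change of the 63 genes was -0.079 with median-ratio scaling and -0.085 with quantile normalization. Leaving out 1 library at a time gave 15 to 20 higher, 20 to 23 lower and a median of -0.050 to 0.044, and 33 to 38 higher and 23 to 26 lower related genes. No called gene reversed its direction. Of the 46 called genes, 34 kept their call in every alternative that tested them, the fold threshold aside (14 higher, 20 lower). With the fold threshold included, 22 did so (7 higher, 15 lower). An alternative that did not test a gene was not counted against it. The filter of 3 FPKM tested only 50 of the genes, and B3GALT4, CHST15 and FUT1, which are among the 22, were not tested there. With no filter 22 of 73 genes were higher and 28 lower. The replicate block gave 24 higher and 25 lower (42 and 27 related genes) and added calls for B4GALT7, CHST1 (adjusted p = 0.0468) and GALNT10. Libraries of the same number correlated by 0.017, 0.33 and 0.012 in their deviations from the group means. Those of different numbers correlated by -0.24 to 0.22. With 3 libraries per group these values cannot decide whether the numbers pair the libraries. Read depth is unknown, which limits the values under 1 FPKM.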
